A study of Mus musculus with 23 samples.

Results

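Gene expression was compared between livers with the active *Braf* V600E allele in hepatocytes and both *Icmt* alleles floxed (ABpIF/F) and livers of Ctrl mice with wild-type *Braf*. The paper found much less ICMT protein in ABpIF/F livers but leaves room for incomplete deletion. The 3 ABpIF/F mice BG183, BG38 and BG90 and the 6 Ctrl mice BG3, malpa387, malpa454, malpa458, malpa459 and malpa462 were taken by the mouse names heading the count columns, so that 9 of the 15 mice of the series and all 27179 genes of the table were used. The other 6 mice, ABpIF/+, have active *Braf* and 1 intact *Icmt* allele and entered the same fit. They were set against ABpIF/F, and for a few lists against Ctrl, where named. Every mouse was female and carried the *Alb-Cre* transgene, which the albumin promoter drives in hepatocytes, and *Trp53* flx/flx. Cre can therefore delete *Trp53* in the controls as well. By the labels Ctrl mice are *Braf* wt and *Icmt* flx/+, and ABpIF/F mice are *Icmt* flx/flx with a *Braf* entry of +/+, where the series design gives *Braf* CA/+, 1 copy of the conditional V600E allele. ABpIF/F and Ctrl therefore differ in *Braf* and in the second *Icmt* allele, and all Ctrl mice but BG3 also carried another strain label than ABpIF/F. The parts of these in a difference cannot be told apart. ABpIF/F and ABpIF/+ shared a strain label and by their labels differ in *Icmt* alone. The tissue was free of visible tumors, and the labels tie neither an age nor an hour of collection to a mouse.

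BRAF is the kinase between RAS and MEK in the cascade that activates ERK, and the V600E form signals without RAS. Active ERK induces genes of its own inhibitors, the DUSP phosphatases and SPRY proteins, together with transcription factors such as the ETV family. ICMT methylates the prenylated end of RAS and many other proteins, a last step in fitting them to membranes. In the adult liver hepatocytes make most plasma proteins, bile acids and drug-metabolizing enzymes, many of them in zones along the lobule, by sex or by hour of the day, and immature or injured liver turns on fetal and bile duct genes.

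The libraries held 24742910 to 32262649 reads on genes. Values are CPM, counts scaled to a common library size by TMM, and a log2 fold change is ABpIF/F relative to Ctrl with its standard error (SE). Genes were tested with edgeR's quasi-likelihood test over all 27179 genes, and a gene was called, and is written as having risen or fallen, where the adjusted p was under 0.01 and the change was 2-fold or more. Ctrl values are given from the lowest to the highest of 6 mice and ABpIF/F values in the order BG183, BG38 and BG90. The p-values rest on the spread between mice within groups, estimated over all 15 mice of the fit, ABpIF/+ included. Some libraries stood apart. BG38 had a TMM factor of 1.24 against 0.846 to 1.09 in the other mice. The 10 most abundant genes held 28.0 to 33.0% of the counts in ABpIF/F and 19.3 to 22.5% in Ctrl mice. A clock score was the mean log2 CPM of 4 genes of the BMAL1 phase of the circadian clock minus that of 11 genes of the opposite phase. It was 0.238, 0.830 and 2.48 in the ABpIF/F mice, 1.02 in malpa387 and -4.77 to -3.77 in the other 5 Ctrl mice. In the ABpIF/+ mice it was -4.34 to -3.47, so the score also separated them from ABpIF/F. The strain label of BG3 was that of all ABpIF/F and ABpIF/+ mice, and the other 5 Ctrl mice carried another. Counts of called genes are therefore also given without BG38, with the strain label as a term and with the clock score as a covariate. These are called the 3 alternative fits, and where 3 counts are given for those fits they follow this order. The other strain label occurs only in Ctrl, so with that term the comparison of ABpIF/F with Ctrl rests on BG3 alone. With the clock score it leans on malpa387, the only Ctrl mouse with a score in the ABpIF/F range. Whether a call lost in these fits reflects strain, clock or so few Ctrl mice was not tested. A value in parentheses after a mouse left out is the log2 fold change without it.

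*Icmt* (Entrez 57295, chromosome 4, 152297214 to 152307126, GRCm38) was at 27.8 to 34.7 CPM in Ctrl (median 30.7) and 15.7, 15.2 and 16.6 CPM in ABpIF/F mice (log2 fold change -0.96, SE 0.13, adjusted p = 8.51e-06), just short of the threshold. *Icmt* did not overlap between the groups, and of the ABpIF/F mice BG38 was the lowest for it. Against ABpIF/+ it was also lower (log2 fold change -1.04, adjusted p = 7.17e-06). Counts per gene do not separate RNA of recombined alleles from that of liver cells without Cre. *Braf* was at 14.1 to 26.5 CPM in Ctrl (median 23.1) and 20.3, 21.9 and 22.0 CPM in ABpIF/F mice (log2 fold change -0.05, SE 0.16, adjusted p = 1), and counts do not show the V600E base change. *Trp53*, floxed in both groups, was at 4.29 to 6.74 CPM in Ctrl (median 5.29) and 12.4, 9.78 and 9.82 CPM in ABpIF/F mice (log2 fold change 0.99, SE 0.17, adjusted p = 1.66e-04). *Trp53* did not overlap between the groups, whereas *Braf* did, and of the ABpIF/F mice BG183 was the lowest for *Braf* and BG183 was the highest for *Trp53*. *Icmt* became called without BG175 (-1.02) and *Trp53* became called without BG3 (1.04), malpa387 (1.07), malpa459 (1.02), BG38 (1.05) or BG90 (1.05).

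In all, 1883 genes were called, 6.93% of those tested, of which 1236 rose (4.55%) and 647 fell (2.38%). The median log2 fold change was 2.11 among genes that rose and -1.52 among those that fell, and -0.000772 over the 12316 genes whose mean reached 1 CPM. Ctrl and ABpIF/F mice did not overlap for 1092 of the genes that rose and 616 of those that fell, against 17.1% of all genes. BG38 had the highest value of the 3 ABpIF/F mice for 820 of the genes that rose and the lowest for 416 of those that fell. Without BG38 774 genes rose and 438 fell, with the strain label in the fit 457 and 691, and with the clock score 271 and 283. Of the genes that rose, 376 were also higher in ABpIF/F than in ABpIF/+ and 27 were lower, and of the genes that fell, 105 were also lower and 40 higher. Among 182 called genes that are named here or in the gene lists below, 133 kept their call without BG38, 87 with the strain label, 68 with the clock score and 62 in each of the 3 alternative fits.

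**Figure D1:**
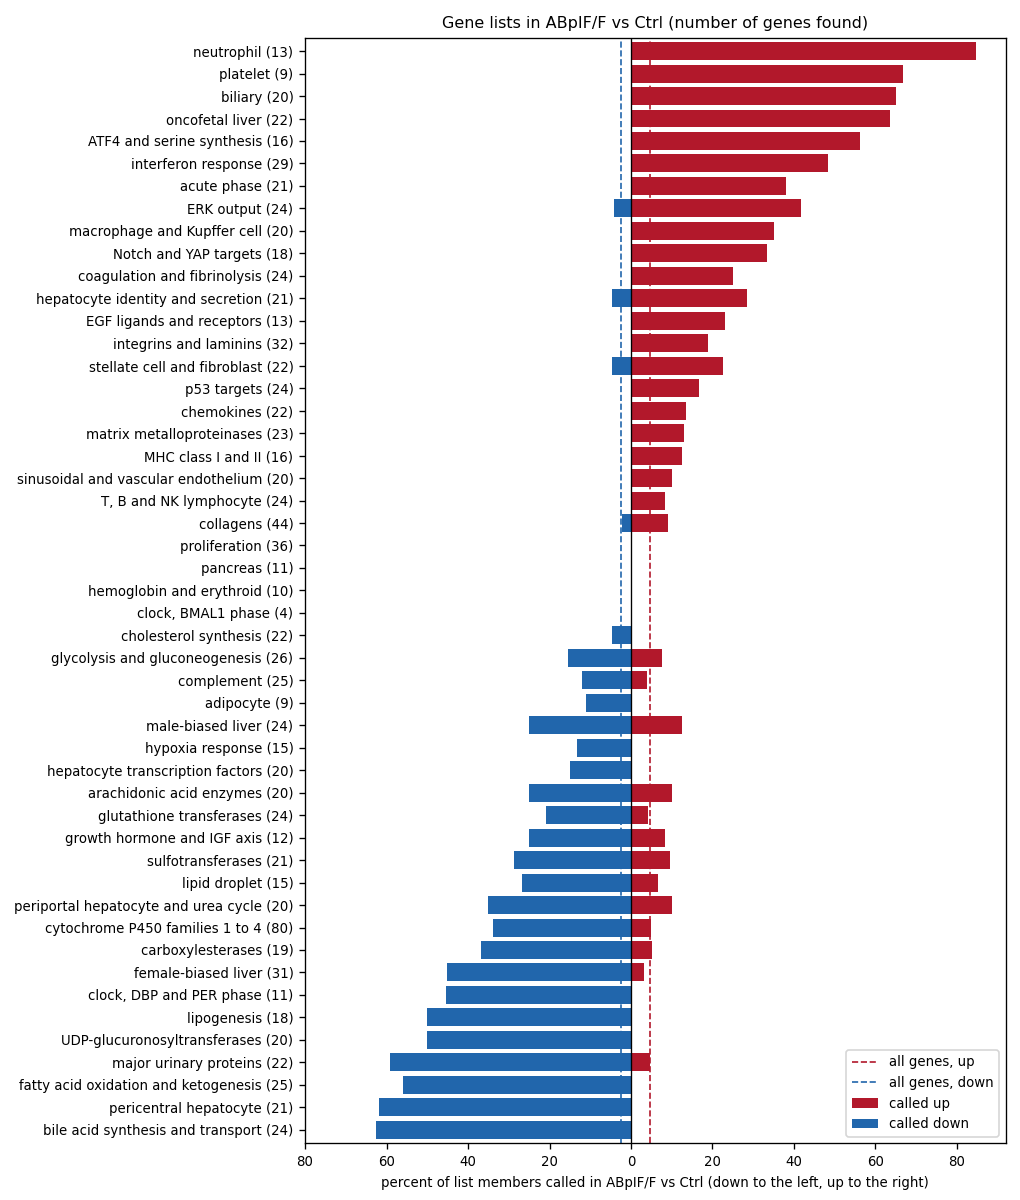
Percent of the members of each gene list that rose (right) and fell (left) in ABpIF/F vs Ctrl livers, with dashed lines at 4.55% and 2.38%, the shares of all genes. Neutrophil, platelet, biliary and oncofetal lists had the largest shares that rose, and pericentral, bile acid and major urinary protein lists were among those with the largest shares that fell.

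Genes induced by ERK were higher in ABpIF/F livers: of 24 genes, 10 rose and 1 fell, with a median log2 fold change of 1.73, or 1.13 with genes near 0 counts set to a floor of 3 counts per library. The number that rose was 8 without BG38, 8 with the strain label and 5 with the clock score in the fit. *Dusp4*, a nuclear phosphatase that inactivates ERK, was at 0.287 to 1.34 CPM in Ctrl (median 0.950) and 6.92, 14.7 and 7.07 CPM in ABpIF/F mice (log2 fold change 3.37, SE 0.31, adjusted p = 1.53e-07). *Dusp5*, another ERK phosphatase of the nucleus, was at 0.261 to 0.641 CPM in Ctrl (median 0.559) and 4.47, 12.3 and 4.36 CPM in ABpIF/F mice (log2 fold change 3.75, SE 0.33, adjusted p = 4.52e-08). *Spry2*, which dampens signaling from growth factor receptors, was at 0.591 to 2.21 CPM in Ctrl (median 1.33) and 9.27, 10.2 and 8.32 CPM in ABpIF/F mice (log2 fold change 2.75, SE 0.30, adjusted p = 1.29e-06). *Dusp4*, *Dusp5* and *Spry2* did not overlap between the groups, and of the ABpIF/F mice BG38 was the highest for each of them. *Etv4*, a transcription factor induced by ERK, was at 0 to 0.247 CPM in Ctrl (median 0.126) and 1.70, 7.20 and 4.50 CPM in ABpIF/F mice (log2 fold change 5.14, SE 0.48, adjusted p = 9.94e-08). *Dusp6*, the cytoplasmic ERK phosphatase, was at 24.5 to 41.1 CPM in Ctrl (median 25.7) and 49.6, 72.7 and 62.3 CPM in ABpIF/F mice (log2 fold change 1.07, SE 0.17, adjusted p = 9.40e-05). *Ccnd1*, which encodes cyclin D1 and is a classical ERK target, fell instead, with 105 to 162 CPM in Ctrl (median 144) and 28.2, 44.9 and 40.4 CPM in ABpIF/F mice (log2 fold change -1.89, SE 0.33, adjusted p = 7.68e-04). *Etv4*, *Dusp6* and *Ccnd1* did not overlap between the groups, and of the ABpIF/F mice BG38 was the highest for *Etv4* and *Dusp6* and BG183 was the lowest for *Ccnd1*. Against ABpIF/+ livers *Etv4* (log2 fold change 1.69, adjusted p = 0.00462) and *Ccnd1* (log2 fold change 2.33, adjusted p = 7.45e-05) were higher in ABpIF/F, and *Dusp4* was not called (log2 fold change 0.17, adjusted p = 0.953). *Dusp6* lost its call without BG175 (1.00) or BG38 (0.93). *Dusp4*, *Dusp5* and *Etv4* kept their calls in each of the 3 alternative fits.

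Of 13 genes of EGF receptor ligands and their receptors, 3 rose and 0 fell, and 3, 2 and 2 rose in the 3 alternative fits. The ligand genes *Hbegf*, at 0.782 to 1.66 CPM in Ctrl (median 1.15) and 3.30, 8.72 and 3.54 CPM in ABpIF/F mice (log2 fold change 2.14, SE 0.28, adjusted p = 9.37e-06), *Btc* (log2 fold change 2.38, SE 0.31, adjusted p = 1.06e-05) and *Nrg1* (log2 fold change 4.32, SE 0.46, adjusted p = 5.68e-07) rose, all from levels of at most 2.18 CPM in any Ctrl mouse. *Egfr*, the receptor gene, was at 137 to 718 CPM in Ctrl (median 345) and 106, 141 and 263 CPM in ABpIF/F mice (log2 fold change -1.10, SE 0.54, adjusted p = 0.220) and was not called. *Hbegf*, *Btc* and *Nrg1* did not overlap between the groups, whereas *Egfr* did, and of the ABpIF/F mice BG38 was the highest for *Hbegf*, *Btc* and *Nrg1* and BG183 was the lowest for *Egfr*. *Hbegf* and *Nrg1* kept their calls in each of the 3 alternative fits.

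**Figure D2:**
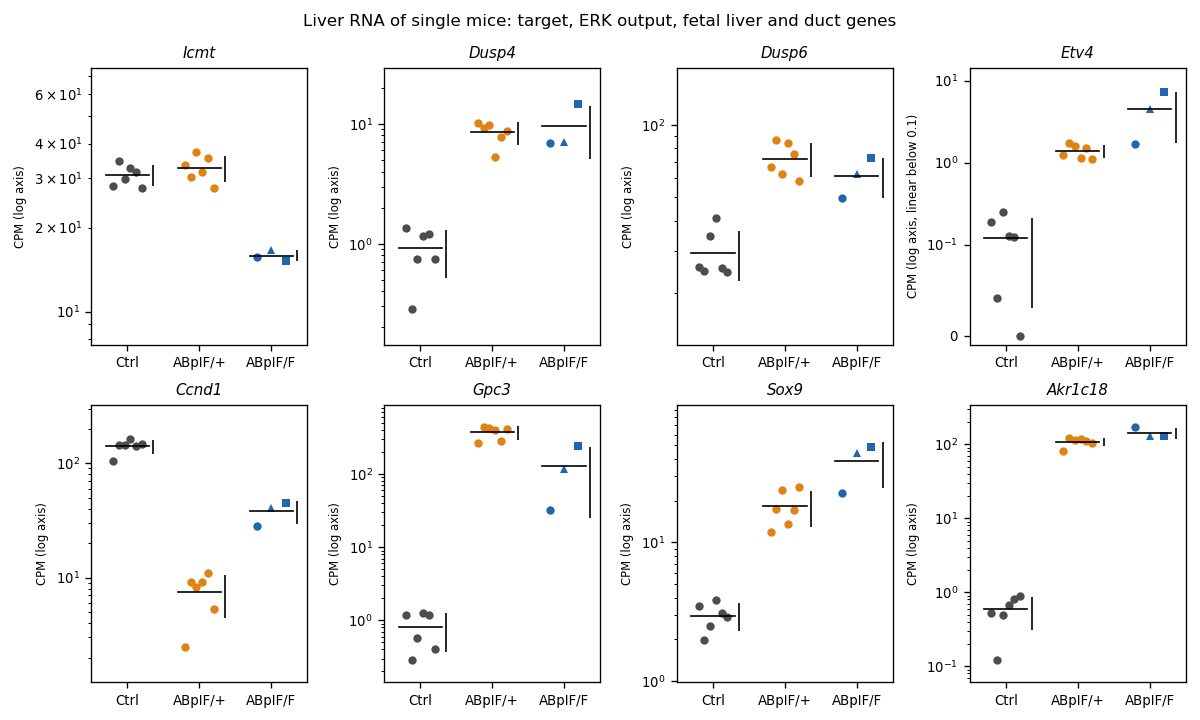
CPM of *Icmt*, 4 genes of the ERK pathway and 3 genes with large rises in each mouse (points), with the group mean (line) and SD (bar, cut at the axis), on log axes that are linear below 0.1 where a mouse had 0. Circle, square and triangle mark BG183, BG38 and BG90. *Icmt* was at 15.2 to 16.6 CPM in ABpIF/F livers, and *Gpc3*, *Sox9* and *Akr1c18* lay above every Ctrl mouse.

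The largest rises were in genes nearly silent in Ctrl livers. The 10 largest rises and the 10 largest falls were taken among called genes without overlap between the groups. For those genes, wherever named, the lack of overlap follows from that choice and is not a result. *Akr1c18* (Entrez 105349, chromosome 13, 4132615 to 4150646), the enzyme that inactivates progesterone, was at 0.123 to 0.895 CPM in Ctrl (median 0.597) and 171, 128 and 129 CPM in ABpIF/F mice (log2 fold change 7.89, SE 0.26, adjusted p = 4.29e-14). *Klrb1b* (Entrez 80782, chromosome 6, 128813706 to 128826315), a receptor of natural killer cells, was at 0.0311 to 0.186 CPM in Ctrl (median 0.108) and 25.0, 37.0 and 65.8 CPM in ABpIF/F mice (log2 fold change 8.59, SE 0.47, adjusted p = 1.07e-08). *Scn8a* (Entrez 20273, chromosome 15, 100869863 to 101045938), a sodium channel of neurons, was at 0 to 0.192 CPM in Ctrl (median 0.128) and 11.8, 25.1 and 29.7 CPM in ABpIF/F mice (log2 fold change 7.51, SE 0.39, adjusted p = 4.73e-10). *Akr1c18*, *Klrb1b* and *Scn8a* did not overlap between the groups, and of the ABpIF/F mice BG183 was the highest for *Akr1c18* and BG90 was the highest for *Klrb1b* and *Scn8a*. In a list of 24 genes of T, B and NK lymphocytes, to which *Klrb1b* did not belong, 2 rose, and 0 without BG38, with the strain label or with the clock score. The NK receptor gene *Ncr1* was at 0 to 0.192 CPM in Ctrl (median 0.0820) and 0.489, 0.859 and 0.322 CPM in ABpIF/F mice (log2 fold change 2.63, SE 0.82, adjusted p = 0.0277). *Tmeff2*, a transmembrane protein of brain and prostate, rose from at most 3 counts in each Ctrl mouse to 5.71, 14.4 and 16.8 CPM (at least 115-fold higher, adjusted p = 8.18e-08). *Meltf*, melanotransferrin, was at 0 to 0.124 CPM in Ctrl (median 0.0177) and 3.79, 8.75 and 9.97 CPM in ABpIF/F mice (log2 fold change 7.57, SE 0.54, adjusted p = 2.86e-09). *Tbx1*, a T-box transcription factor, reached 1.17, 11.3 and 3.32 CPM (at least 49.2-fold higher, adjusted p = 9.83e-06). *Tmeff2*, *Meltf* and *Tbx1* did not overlap between the groups, and of the ABpIF/F mice BG90 was the highest for *Tmeff2* and *Meltf* and BG38 was the highest for *Tbx1*. Also among the 10 largest rises were those of *Cacna1b*, *Tff3* and *Gldn*. *Tff3*, a trefoil peptide of mucosal secretions, was at 308, 106 and 132 CPM in the ABpIF/F mice, and *Gldn*, gliomedin of the nerve, at 26.6, 38.4 and 56.2 CPM. *Meltf* and *Tbx1* were also higher than in ABpIF/+ livers (log2 fold change 1.80, adjusted p = 0.00163, and log2 fold change 3.27, adjusted p = 0.00145). *Akr1c18*, *Klrb1b*, *Scn8a*, *Tmeff2*, *Meltf*, *Tff3* and *Gldn* kept their calls in each of the 3 alternative fits.

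Genes of the fetal liver rose. Of 22 oncofetal genes, 14 rose and 0 fell (median log2 fold change 3.32, or 3.12 with genes at the floor), the number that rose being 13 without BG38, 6 with the strain label and 6 with the clock score in the fit. *Gpc3* (Entrez 14734, chromosome X, 52272426 to 52613974), a cell surface proteoglycan of fetal liver and hepatocellular carcinoma, was at 0.287 to 1.25 CPM in Ctrl (median 0.873) and 32.8, 242 and 117 CPM in ABpIF/F mice (log2 fold change 7.29, SE 0.56, adjusted p = 7.95e-07). *H19* (Entrez 14955, chromosome 7, 142575530 to 142578146), an imprinted noncoding RNA of fetal liver, was at 0.492 to 2.24 CPM in Ctrl (median 1.21) and 121, 205 and 113 CPM in ABpIF/F mice (log2 fold change 6.90, SE 0.46, adjusted p = 1.85e-07). *Afp*, alpha-fetoprotein, was at 2.79 to 4.59 CPM in Ctrl (median 4.08) and 20.9, 130.0 and 57.8 CPM in ABpIF/F mice (log2 fold change 4.14, SE 0.52, adjusted p = 8.79e-05). *Gpc3*, *H19* and *Afp* did not overlap between the groups, and of the ABpIF/F mice BG38 was the highest for each of them. *Bex1*, an X-linked gene of brain, rose to 4.89, 23.8 and 7.54 CPM from at most 0.187 CPM (log2 fold change 7.03, SE 0.61, adjusted p = 2.78e-06), but was lower than in ABpIF/+ livers (log2 fold change -3.11, adjusted p = 5.37e-04). *Dlk1*, a Notch-related protein of hepatoblasts, rose to 1.76, 1.80 and 2.82 CPM (at least 19.9-fold higher, adjusted p = 1.41e-06) and was higher than in ABpIF/+ livers (log2 fold change 2.97, adjusted p = 2.99e-04). *Gpc3* and *H19* kept their calls in each of the 3 alternative fits.

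Biliary genes rose as well, 13 of 20 (median 2.20, or 1.89 with genes at the floor), the number that rose being 10 without BG38, 4 with the strain label and 3 with the clock score in the fit. Against ABpIF/+ 10 were higher, in a comparison where 5.49% of all genes were. *Sox9* (Entrez 20682, chromosome 11, 112782210 to 112787757), the transcription factor of bile ducts and ductular hepatocytes, was at 1.97 to 3.85 CPM in Ctrl (median 2.99) and 22.8, 49.1 and 44.0 CPM in ABpIF/F mice (log2 fold change 3.70, SE 0.26, adjusted p = 1.59e-08). *Spp1*, osteopontin, was at 29.2 to 60.0 CPM in Ctrl (median 45.3) and 175, 1081 and 724 CPM in ABpIF/F mice (log2 fold change 3.91, SE 0.58, adjusted p = 3.75e-04). The keratin genes of mature ducts were not called, *Krt19* at 0.802 to 2.05 CPM in Ctrl (median 1.34) and 2.12, 4.57 and 2.39 CPM in ABpIF/F mice (log2 fold change 1.10, SE 0.37, adjusted p = 0.0431). *Krt7* was at 0.481 to 1.24 CPM in Ctrl (median 0.826) and 0.653, 1.94 and 1.57 CPM in ABpIF/F mice (log2 fold change 0.71, SE 0.43, adjusted p = 0.332). *Sox9*, *Spp1* and *Krt19* did not overlap between the groups, whereas *Krt7* did, and of the ABpIF/F mice BG38 was the highest for each of them. *Epcam*, an adhesion protein of biliary cells, was at 1.22 to 2.67 CPM in Ctrl (median 2.13) and 3.00, 11.0 and 5.11 CPM in ABpIF/F mice (log2 fold change 1.69, SE 0.38, adjusted p = 0.00271), and *Sctr*, the secretin receptor, rose to 0.489, 3.24 and 1.68 CPM (log2 fold change 4.19, SE 0.84, adjusted p = 0.00124). The summed level of the list was 216 to 269.6 CPM in Ctrl and 839, 1626 and 1225 CPM in ABpIF/F mice. In bulk tissue, more cells of a type and more RNA per cell cannot be told apart, here or for any list below. *Epcam* lost its call without BG38 (1.03) and *Sctr* lost its call without BG38 (3.45). *Sox9* alone among the called genes named here kept its call in each of the 3 alternative fits.

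Of 18 targets of Notch and YAP, 6 rose and 0 fell, the number that rose being 4 without BG38, 4 with the strain label and 2 with the clock score in the fit. *Hes1*, a repressor that Notch induces, was at 4.10 to 9.27 CPM in Ctrl (median 6.16) and 39.7, 30.7 and 37.3 CPM in ABpIF/F mice (log2 fold change 2.48, SE 0.24, adjusted p = 6.92e-07), and the Notch ligand gene *Jag1* at 3.43 to 6.07 CPM in Ctrl (median 3.73) and 8.68, 20.4 and 10.3 CPM in ABpIF/F mice (log2 fold change 1.61, SE 0.25, adjusted p = 5.68e-05). *Ankrd1*, a YAP target, rose from 0.082 to 0.596 CPM to 2.09, 6.81 and 2.07 CPM (log2 fold change 3.46, SE 0.51, adjusted p = 3.75e-05) and was higher than in ABpIF/+ livers (log2 fold change 4.74, adjusted p = 6.09e-06). *Hes1*, *Jag1* and *Ankrd1* did not overlap between the groups, and of the ABpIF/F mice BG183 was the highest for *Hes1* and BG38 was the highest for *Jag1* and *Ankrd1*. The integrin and laminin list had 6 of 32 genes that rose, the number that rose being 3 without BG38, 1 with the strain label and 1 with the clock score in the fit. *Lama5*, a laminin chain of epithelial basement membranes, was at 3.65 to 5.78 CPM in Ctrl (median 4.82) and 29.0, 48.8 and 35.0 CPM in ABpIF/F mice (log2 fold change 2.97, SE 0.23, adjusted p = 4.59e-08). The basement membrane collagen genes *Col4a3*, at 0.246 to 1.67 CPM in Ctrl (median 1.21) and 46.3, 26.6 and 22.7 CPM in ABpIF/F mice (log2 fold change 4.75, SE 0.35, adjusted p = 1.48e-07), *Col4a4* (log2 fold change 3.82, SE 0.34, adjusted p = 4.93e-08) and *Col4a5* (log2 fold change 1.92, SE 0.25, adjusted p = 9.41e-06) rose. *Lama5*, *Col4a3*, *Col4a4* and *Col4a5* did not overlap between the groups, and of the ABpIF/F mice BG38 was the highest for *Lama5* and *Col4a5* and BG183 was the highest for *Col4a3* and *Col4a4*. The matrix protease gene *Mmp14* was at 28.7 to 49.7 CPM in Ctrl (median 31.7) and 89.3, 115 and 126 CPM in ABpIF/F mice (log2 fold change 1.63, SE 0.17, adjusted p = 2.78e-07). By contrast *Col1a1* was at 7.37 to 14.4 CPM in Ctrl (median 8.67) and 15.7, 31.7 and 12.1 CPM in ABpIF/F mice (log2 fold change 1.08, SE 0.35, adjusted p = 0.0410). *Col3a1* was at 28.1 to 36.3 CPM in Ctrl (median 29.9) and 37.7, 55.3 and 24.3 CPM in ABpIF/F mice (log2 fold change 0.34, SE 0.27, adjusted p = 0.508). Neither gene was called. Against ABpIF/+ both were higher (log2 fold change 5.37, adjusted p = 3.80e-07 for *Col1a1*, and log2 fold change 4.66, adjusted p = 1.25e-07 for *Col3a1*). So were 15 of 44 collagen genes, in a comparison where 5.49% of all genes were. In ABpIF/+ against Ctrl 14 of the 44 fell and 4 rose (median log2 fold change -0.80). The paper's staining, which shows protein, had more collagen in ABpIF/+ than in Ctrl livers and markedly less in ABpIF/F. In ABpIF/F against Ctrl 4 of the 44 collagen genes rose and 1 fell, and in the 3 alternative fits 3, 4 and 3 rose and 0, 0 and 0 fell. *Hes1*, *Lama5*, *Col4a3*, *Col4a4*, *Col4a5* and *Mmp14* kept their calls in each of the 3 alternative fits.

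Most genes of hepatocyte transcription factors were not called: of 20, 3 fell and 0 rose, and 4, 1 and 0 fell in the 3 alternative fits. The share that fell was 15%, against 2.38% of all genes, and the median log2 fold change was -0.44. The summed level of the list was 2191 to 3020 CPM in Ctrl and 2054, 1566.5 and 2116 CPM in ABpIF/F mice, each below every Ctrl mouse. *Hnf4a*, a master regulator of hepatocyte genes, was at 495 to 672 CPM in Ctrl (median 597) and 439, 477 and 623 CPM in ABpIF/F mice (log2 fold change -0.21, SE 0.17, adjusted p = 0.524). *Cebpa*, of hepatocyte differentiation, was at 297 to 575 CPM in Ctrl (median 413) and 507, 213 and 372 CPM in ABpIF/F mice (log2 fold change -0.22, SE 0.22, adjusted p = 0.686). The genes that fell were *Ppara*, the receptor that turns on fatty acid oxidation, at 173 to 464 CPM in Ctrl (median 376) and 143, 102 and 75.0 CPM in ABpIF/F mice (log2 fold change -1.66, SE 0.28, adjusted p = 2.09e-04), *Nr1i3*, the xenobiotic receptor CAR (log2 fold change -1.64, SE 0.25, adjusted p = 6.53e-05), and *Onecut2* (log2 fold change -1.62, SE 0.28, adjusted p = 4.00e-04), a factor of developing liver. *Ppara*, *Nr1i3* and *Onecut2* did not overlap between the groups, whereas *Hnf4a* and *Cebpa* did, and of the ABpIF/F mice BG183 was the lowest for *Hnf4a* and *Onecut2*, BG38 was the lowest for *Cebpa* and *Nr1i3* and BG90 was the lowest for *Ppara*. Of 21 genes of hepatocyte identity and secretion, 6 rose and 1 fell, against 7, 0 and 0 that rose and 0, 1 and 0 that fell in the 3 alternative fits. *Apoa1*, the main protein of HDL, was at 4019 to 7800 CPM in Ctrl (median 5880) and 20211, 14643 and 20380 CPM in ABpIF/F mice (log2 fold change 1.67, SE 0.22, adjusted p = 9.37e-06). *Trf*, transferrin, was at 16996 to 22502 CPM in Ctrl (median 18830) and 41101, 42633 and 73199 CPM in ABpIF/F mice (log2 fold change 1.45, SE 0.21, adjusted p = 2.26e-05). *Alb*, albumin, was at 76790 to 104893 CPM in Ctrl (median 88419) and 181278, 100260 and 150791 CPM in ABpIF/F mice (log2 fold change 0.69, SE 0.21, adjusted p = 0.0248) and was not called. *Apoa1* and *Trf* did not overlap between the groups, whereas *Alb* did, and of the ABpIF/F mice BG90 was the highest for *Apoa1* and *Trf* and BG183 was the highest for *Alb*. The calls named here were not kept in all 3 alternative fits.

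Genes of both zones of the lobule fell. Of 21 pericentral genes, 13 fell and none rose (median -1.89), the number that fell being 12 without BG38, 9 with the strain label and 7 with the clock score in the fit. *Glul*, glutamine synthetase, the marker of the last cells before the central vein, was at 861 to 1233 CPM in Ctrl (median 1106) and 222, 56.3 and 283 CPM in ABpIF/F mice (log2 fold change -2.55, SE 0.38, adjusted p = 9.91e-05). *Cyp2e1*, which oxidizes ethanol, was at 5630 to 8704 CPM in Ctrl (median 6816) and 1881, 689 and 1649 CPM in ABpIF/F mice (log2 fold change -2.31, SE 0.33, adjusted p = 2.72e-05). *Oat*, ornithine aminotransferase, was at 527 to 1345 CPM in Ctrl (median 1073) and 139.7, 44.9 and 218 CPM in ABpIF/F mice (log2 fold change -2.92, SE 0.45, adjusted p = 2.56e-04). *Glul*, *Cyp2e1* and *Oat* did not overlap between the groups, and of the ABpIF/F mice BG38 was the lowest for each of them. *Slc1a2*, a glutamate transporter, was at 212 to 349 CPM in Ctrl (median 256) and 44.0, 6.51 and 37.9 CPM in ABpIF/F mice (log2 fold change -3.18, SE 0.50, adjusted p = 3.86e-04). The Wnt target genes *Axin2*, at 6.28 to 11.5 CPM in Ctrl (median 8.33) and 4.41, 1.77 and 4.36 CPM in ABpIF/F mice (log2 fold change -1.29, SE 0.36, adjusted p = 0.0171), and *Lgr5*, at 4.91 to 9.48 CPM in Ctrl (median 7.67) and 1.57, 1.11 and 2.68 CPM in ABpIF/F mice (log2 fold change -2.09, SE 0.61, adjusted p = 0.0269), were lower in each ABpIF/F mouse than in any Ctrl mouse and were not called. Of 20 periportal and urea cycle genes, 7 fell and 2 rose, and the number that fell was 4 without BG38, 5 with the strain label and 5 with the clock score in the fit. *Cyp2f2*, a cytochrome of periportal cells, was at 814 to 1093 CPM in Ctrl (median 879) and 158, 30.9 and 36.0 CPM in ABpIF/F mice (log2 fold change -3.61, SE 0.45, adjusted p = 3.02e-05). *Asl*, argininosuccinate lyase of the urea cycle, was at 555 to 765 CPM in Ctrl (median 617) and 177, 129.7 and 149.9 CPM in ABpIF/F mice (log2 fold change -2.06, SE 0.20, adjusted p = 1.50e-07), and was lower than in ABpIF/+ livers (log2 fold change -2.62, adjusted p = 1.25e-07). *Arg1*, the last enzyme of that cycle, was at 1003 to 1320 CPM in Ctrl (median 1173) and 1067, 715 and 1249 CPM in ABpIF/F mice (log2 fold change -0.21, SE 0.18, adjusted p = 0.567), and *Cdh1*, E-cadherin, rose, with 19.9 to 59.7 CPM in Ctrl (median 44.3) and 162, 157 and 156 CPM in ABpIF/F mice (log2 fold change 1.96, SE 0.25, adjusted p = 1.94e-05). *Cyp2f2*, *Asl* and *Cdh1* did not overlap between the groups, whereas *Arg1* did, and of the ABpIF/F mice BG38 was the lowest for *Cyp2f2*, *Asl* and *Arg1* and BG183 was the highest for *Cdh1*. *Axin2* became called without BG88 (-1.30) and *Lgr5* became called without BG40 (-2.09). *Cyp2e1*, *Oat*, *Cyp2f2*, *Asl* and *Cdh1* kept their calls in each of the 3 alternative fits.

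Enzymes that process drugs and hormones were lower. Of 80 cytochrome P450 genes of families 1 to 4, 27 fell and 4 rose, the number that fell being 22 without BG38, 23 with the strain label and 15 with the clock score in the fit. The number of them that rose was 3, 2 and 2 in those fits. Their summed level was 25635 to 33023 CPM in Ctrl and 13756, 7442 and 10411 CPM in ABpIF/F mice. Of 20 UDP-glucuronosyltransferase genes 10 fell, and 10, 10 and 7 in the 3 alternative fits. Of 21 sulfotransferase genes 6 fell and 2 rose, against 3, 4 and 2 that fell and 2, 0 and 0 that rose in those fits. Of 19 carboxylesterase genes 7 fell and 1 rose, against 5, 5 and 3 that fell and 2, 0 and 1 that rose. Members of these families share sequence, so the split of reads between close copies is uncertain. *Ugt1a9*, which conjugates phenols, was at 51.0 to 80.5 CPM in Ctrl (median 58.6) and 3.10, 7.67 and 1.75 CPM in ABpIF/F mice (log2 fold change -3.86, SE 0.45, adjusted p = 3.29e-05). *Sult2a1*, the sulfotransferase of bile acids and steroids, was at 31.9 to 161 CPM in Ctrl (median 75.1) and 1.01, 0.831 and 0.500 CPM in ABpIF/F mice (log2 fold change -6.79, SE 0.75, adjusted p = 3.12e-05). *Ces1b*, a carboxylesterase, was at 86.3 to 140.3 CPM in Ctrl (median 107) and 10.2, 17.3 and 11.7 CPM in ABpIF/F mice (log2 fold change -3.05, SE 0.37, adjusted p = 2.81e-05). *Ugt1a9*, *Sult2a1* and *Ces1b* did not overlap between the groups, and of the ABpIF/F mice BG90 was the lowest for *Ugt1a9* and *Sult2a1* and BG183 was the lowest for *Ces1b*. *Ugt3a1* fell too (log2 fold change -3.63, SE 0.50, adjusted p = 1.66e-04) but was higher than in ABpIF/+ livers (log2 fold change 2.19, adjusted p = 0.00538). Glutathione transferase genes had 5 of 24 that fell (5, 5 and 4 in the 3 alternative fits), among them *Gsta3*, with 991 to 1696 CPM in Ctrl (median 1427) and 631, 386 and 459 CPM in ABpIF/F mice (log2 fold change -1.46, SE 0.20, adjusted p = 1.91e-05). *Gstp2* rose, from 0.342 to 0.779 CPM to 1.37, 5.15 and 1.29 CPM (log2 fold change 2.27, SE 0.41, adjusted p = 3.56e-04). *Gstp2* lost its call without BG38 (1.30). *Ugt1a9*, *Sult2a1*, *Ces1b*, *Ugt3a1* and *Gsta3* kept their calls in each of the 3 alternative fits.

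Some liver genes differ by sex under the pattern of growth hormone, and many of those biased to females fell in these female livers. Of 31 female-biased genes, 14 fell and 1 rose (median -2.39), the number that fell being 10 without BG38, 7 with the strain label and 5 with the clock score in the fit. The median was -1.55 without malpa454. Against ABpIF/+ 10 were lower, where 1.76% of all genes were. *Cux2*, a repressor of male-biased genes in female liver, was at 27.7 to 79.4 CPM in Ctrl (median 57.1) and 12.6, 14.0 and 5.79 CPM in ABpIF/F mice (log2 fold change -2.39, SE 0.35, adjusted p = 1.50e-04), and was lower than in ABpIF/+ livers (log2 fold change -3.09, adjusted p = 3.63e-05). *A1bg*, a plasma protein of female mouse liver, was at 770.0 to 2229 CPM in Ctrl and below 1 CPM in each ABpIF/F mouse, and was lower than in ABpIF/+ (log2 fold change -7.71, adjusted p = 4.37e-05). *Cyp3a16*, a female-biased cytochrome, was at 37.9 to 239.9 CPM in Ctrl (median 125) and 0.261, 4.71 and 3.97 CPM in ABpIF/F mice (log2 fold change -5.51, SE 0.91, adjusted p = 8.44e-04). *Cux2*, *A1bg* and *Cyp3a16* did not overlap between the groups, and of the ABpIF/F mice BG90 was the lowest for *Cux2* and BG183 was the lowest for *A1bg* and *Cyp3a16*. Of 24 male-biased genes, 6 fell and 3 rose, against 4, 3 and 3 that fell and 1, 0 and 0 that rose in the 3 alternative fits. The number of male-biased genes that rose was 0 without malpa458 or malpa462 and 1 without malpa387, malpa454, BG183 or BG90, and the number that fell was 3 without BG90. *Cyp7b1*, an oxysterol hydroxylase, was at 19.1 to 49.8 CPM in Ctrl (median 28.6) and 5.61, 6.34 and 5.50 CPM in ABpIF/F mice (log2 fold change -2.47, SE 0.30, adjusted p = 1.05e-05). Of 22 major urinary protein genes, a family of near-identical copies on chromosome 4, 13 fell and 1 rose, the number that fell being 10 without BG38, 10 with the strain label and 7 with the clock score in the fit, and 0, 0 and 0 rose in those fits. Their summed level was 2108 to 4653 CPM in Ctrl and 1222, 178 and 620.2 CPM in ABpIF/F mice. Of these 22 genes 5 were higher than in ABpIF/+ livers, in a comparison where 5.49% of all genes were. In ABpIF/+ against Ctrl 17 of them fell and 0 rose. In the growth hormone and IGF list, *Ghr*, the growth hormone receptor, was at 411 to 580.4 CPM in Ctrl (median 544) and 199, 83.7 and 145 CPM in ABpIF/F mice (log2 fold change -1.89, SE 0.22, adjusted p = 2.12e-06). *Igf1* was at 570.3 to 929 CPM in Ctrl (median 770.4) and 392, 142 and 235 CPM in ABpIF/F mice (log2 fold change -1.59, SE 0.25, adjusted p = 8.17e-05), and *Igfals*, which stabilizes IGF in plasma, also fell (log2 fold change -1.71, SE 0.24, adjusted p = 2.73e-05). *Igfbp1*, an IGF binding protein, was the member that rose, with 22.1 to 103 CPM in Ctrl (median 44.2) and 404, 1350 and 604 CPM in ABpIF/F mice (log2 fold change 3.85, SE 0.53, adjusted p = 1.43e-04). *Cyp7b1*, *Ghr*, *Igf1*, *Igfals* and *Igfbp1* did not overlap between the groups, and of the ABpIF/F mice BG90 was the lowest for *Cyp7b1*, BG38 was the lowest for *Ghr*, *Igf1* and *Igfals* and BG38 was the highest for *Igfbp1*. *A1bg*, *Cyp7b1* and *Ghr* kept their calls in each of the 3 alternative fits.

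**Figure D3:**
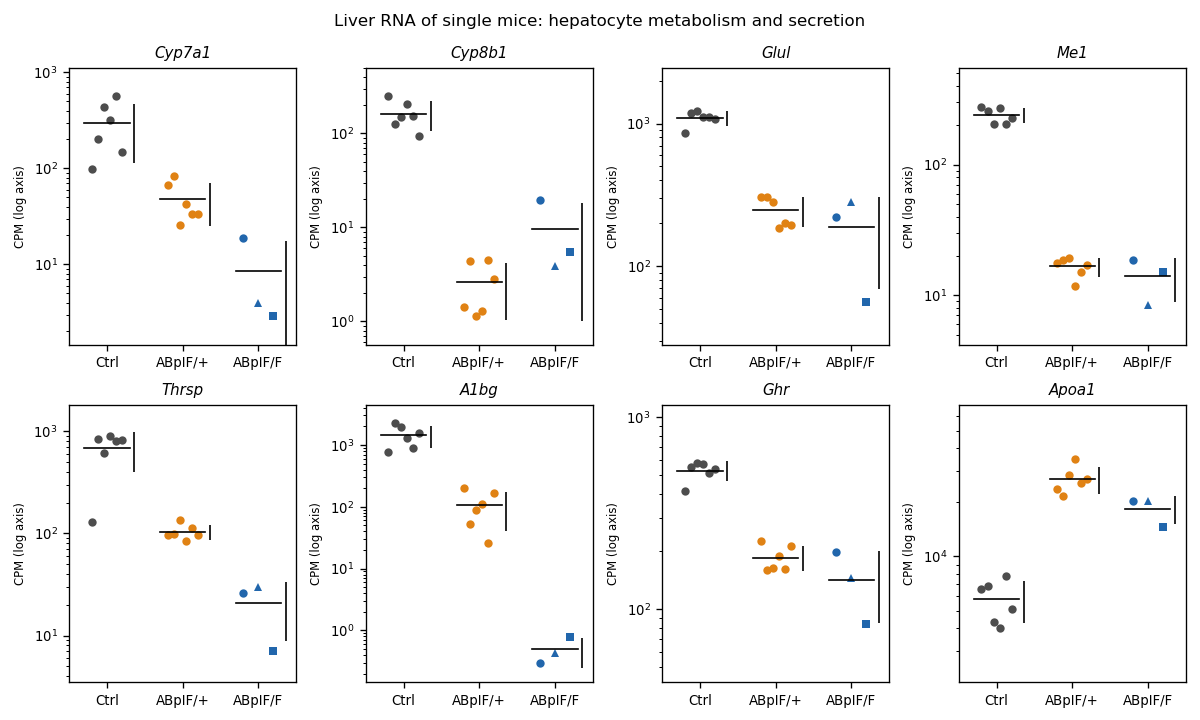
CPM (log axes) of 8 genes of bile acid, nitrogen and lipid metabolism and hormone response in each mouse (points), with the group mean (line) and SD (bar). Circle, square and triangle mark BG183, BG38 and BG90. *Apoa1* lay above every Ctrl mouse in ABpIF/F livers and the other 7 genes below.

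Fatty acid oxidation genes were lower, 14 of 25 having fallen and none risen (median -1.03), the number that fell being 10 without BG38, 20 with the strain label and 8 with the clock score in the fit. *Ehhadh*, the bifunctional enzyme of peroxisomes, was at 321 to 517 CPM in Ctrl (median 418) and 140.3, 79.1 and 84.5 CPM in ABpIF/F mice (log2 fold change -2.04, SE 0.21, adjusted p = 2.89e-07). *Acaa1b*, a peroxisomal thiolase, was at 441 to 1472 CPM in Ctrl (median 899) and 121, 33.2 and 47.7 CPM in ABpIF/F mice (log2 fold change -3.83, SE 0.51, adjusted p = 8.28e-05). *Ehhadh* and *Acaa1b* did not overlap between the groups, and of the ABpIF/F mice BG38 was the lowest for each of them. *Cpt1a*, the gate of fatty acids into mitochondria, was at 330.3 to 502 CPM in Ctrl (median 456) and 334, 322 and 244 CPM in ABpIF/F mice (log2 fold change -0.54, SE 0.17, adjusted p = 0.0270) and was not called. Lipogenesis genes, which run the opposite way, also fell, 9 of 18, the number that fell being 5 without BG38, 3 with the strain label and 3 with the clock score in the fit. *Me1*, malic enzyme, which supplies NADPH, was at 204 to 277 CPM in Ctrl (median 243) and 18.5, 15.2 and 8.36 CPM in ABpIF/F mice (log2 fold change -4.10, SE 0.24, adjusted p = 1.31e-10). *Scd1*, stearoyl-CoA desaturase, was at 5388 to 10751 CPM in Ctrl (median 7556) and 2737, 1711 and 2543 CPM in ABpIF/F mice (log2 fold change -1.76, SE 0.26, adjusted p = 4.11e-05). *Thrsp*, a thyroid hormone responsive lipogenic protein, was at 129 to 908 CPM in Ctrl (median 812) and 26.1, 7.03 and 29.8 CPM in ABpIF/F mice (log2 fold change -5.03, SE 0.65, adjusted p = 9.57e-05). *Srebf1*, the transcription factor gene of lipogenesis, was at 174 to 628 CPM in Ctrl (median 511) and 208, 145 and 355 CPM in ABpIF/F mice (log2 fold change -0.97, SE 0.34, adjusted p = 0.0579). *Me1*, *Scd1* and *Thrsp* did not overlap between the groups, whereas *Srebf1* did, and of the ABpIF/F mice BG90 was the lowest for *Me1* and BG38 was the lowest for *Scd1*, *Thrsp* and *Srebf1*. Of 22 cholesterol synthesis genes 1 fell, *Ebp* (log2 fold change -1.21, SE 0.21, adjusted p = 2.55e-04), and 0, 1 and 1 in the 3 alternative fits, 4 without malpa387, 3 without BG90 and 2 without BG183 or BG88. *Ebp* lost its call without BG38 (-0.93). *Srebf1* became called without malpa387 (-1.14). *Ehhadh*, *Acaa1b*, *Me1* and *Scd1* kept their calls in each of the 3 alternative fits.

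Bile acid genes fell at several steps, 15 of 24 with none risen (median -1.20), the number that fell being 8 without BG38, 8 with the strain label and 6 with the clock score in the fit. *Cyp7a1*, the rate-limiting enzyme of bile acid synthesis, was at 99.3 to 561 CPM in Ctrl (median 259.7) and 19.0, 2.91 and 3.93 CPM in ABpIF/F mice (log2 fold change -5.09, SE 0.87, adjusted p = 0.00111). *Cyp8b1*, which makes cholic acid, was at 94.5 to 251 CPM in Ctrl (median 151) and 19.5, 5.48 and 3.86 CPM in ABpIF/F mice (log2 fold change -4.08, SE 0.67, adjusted p = 7.37e-04). *Cyp27a1*, the mitochondrial sterol hydroxylase, was at 508 to 647 CPM in Ctrl (median 567) and 118, 91.9 and 92.1 CPM in ABpIF/F mice (log2 fold change -2.51, SE 0.19, adjusted p = 5.62e-09) and was lower than in ABpIF/+ livers (log2 fold change -1.68, adjusted p = 2.63e-06). *Cyp7a1*, *Cyp8b1* and *Cyp27a1* did not overlap between the groups, and of the ABpIF/F mice BG38 was the lowest for *Cyp7a1* and *Cyp27a1* and BG90 was the lowest for *Cyp8b1*. Genes of transport fell as well. *Abcb11*, the bile salt export pump, was at 589 to 1028 CPM in Ctrl (median 783) and 487, 209 and 311 CPM in ABpIF/F mice (log2 fold change -1.22, SE 0.24, adjusted p = 9.34e-04). *Slc10a1*, the bile acid uptake carrier, was at 517 to 827 CPM in Ctrl (median 812) and 505, 153 and 268 CPM in ABpIF/F mice (log2 fold change -1.30, SE 0.26, adjusted p = 9.46e-04). *Abcb11* and *Slc10a1* did not overlap between the groups, and of the ABpIF/F mice BG38 was the lowest for each of them. In the arachidonic acid list 5 of 20 genes fell and 2 rose, against 5, 6 and 2 that fell and 0, 0 and 0 that rose in the 3 alternative fits. *Ephx2*, soluble epoxide hydrolase, was at 317 to 599 CPM in Ctrl (median 430.3) and 143, 79.1 and 88.3 CPM in ABpIF/F mice (log2 fold change -2.12, SE 0.22, adjusted p = 5.01e-07). *Ptgds*, prostaglandin D synthase, was at 7.22 to 24.6 CPM in Ctrl (median 11.7) and 0.196, 1.11 and 0.286 CPM in ABpIF/F mice (log2 fold change -4.65, SE 0.60, adjusted p = 4.21e-05), yet was higher than in ABpIF/+ livers (log2 fold change 5.73, adjusted p = 0.00181). *Abcb11* lost its call without BG38 (-0.97) and *Slc10a1* lost its call without BG38 (-0.98) or BG90 (-1.21). *Cyp27a1*, *Ephx2* and *Ptgds* kept their calls in each of the 3 alternative fits.

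Serine synthesis and ATF4 target genes went the other way, 9 of 16 having risen (median 1.50), the number that rose being 5 without BG38, 2 with the strain label and 1 with the clock score in the fit. *Phgdh*, the first enzyme of serine synthesis, was at 0.0746 to 0.574 CPM in Ctrl (median 0.331) and 4.14, 18.1 and 12.8 CPM in ABpIF/F mice (log2 fold change 5.28, SE 0.47, adjusted p = 4.33e-07). *Psat1*, the next enzyme, was at 0.530 to 1.49 CPM in Ctrl (median 0.833) and 3.85, 22.5 and 18.9 CPM in ABpIF/F mice (log2 fold change 3.95, SE 0.53, adjusted p = 1.21e-04). *Asns*, asparagine synthetase, was at 0.0410 to 1.51 CPM in Ctrl (median 0.658) and 4.63, 23.2 and 18.8 CPM in ABpIF/F mice (log2 fold change 4.28, SE 0.58, adjusted p = 1.67e-04). *Phgdh*, *Psat1* and *Asns* did not overlap between the groups, and of the ABpIF/F mice BG38 was the highest for each of them. *Fgf21*, a hormone that ATF4 induces, was at 0.289 to 1.45 CPM in Ctrl (median 0.624) and 1.40, 2.96 and 0.857 CPM in ABpIF/F mice (log2 fold change 1.31, SE 0.66, adjusted p = 0.221). Of 26 genes of glycolysis and gluconeogenesis, 4 fell and 2 rose, against 2, 2 and 3 that fell and 1, 0 and 0 that rose in the 3 alternative fits, and without BG183 4 rose. *Fbp1*, of gluconeogenesis, was at 999 to 1390 CPM in Ctrl (median 1052) and 454, 269 and 431 CPM in ABpIF/F mice (log2 fold change -1.52, SE 0.19, adjusted p = 4.42e-06). *Pck1*, its entry enzyme, was at 2080 to 4410 CPM in Ctrl (median 2908) and 734, 581 and 1546 CPM in ABpIF/F mice (log2 fold change -1.70, SE 0.35, adjusted p = 0.00170). *Pfkp*, a phosphofructokinase, rose, with 1.98 to 4.09 CPM in Ctrl (median 2.61) and 8.22, 8.86 and 5.82 CPM in ABpIF/F mice (log2 fold change 1.47, SE 0.21, adjusted p = 2.67e-05), and was lower than in ABpIF/+ livers (log2 fold change -1.40, adjusted p = 1.28e-04). *Fbp1*, *Pck1* and *Pfkp* did not overlap between the groups, and of the ABpIF/F mice BG38 was the lowest for *Fbp1* and *Pck1* and BG38 was the highest for *Pfkp*. In the hypoxia list 2 of 15 genes fell, also in each of the 3 alternative fits, and *Pdk1*, the pyruvate dehydrogenase kinase, was at 112 to 158 CPM in Ctrl (median 126) and 50.5, 30.1 and 36.7 CPM in ABpIF/F mice (log2 fold change -1.76, SE 0.20, adjusted p = 1.29e-06). *Pck1* lost its call without BG183 (-1.54) or BG38 (-1.44). *Phgdh*, *Fbp1* and *Pdk1* kept their calls in each of the 3 alternative fits.

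Acute phase genes of plasma proteins rose, 8 of 21 (median 1.18), the number that rose being 9 without BG38, 2 with the strain label and 1 with the clock score in the fit. Without BG90 the median of the acute phase list was 0.37. *Lcn2*, an iron-trapping protein, was at 5.84 to 10.0 CPM in Ctrl (median 8.36) and 209, 545 and 1069 CPM in ABpIF/F mice (log2 fold change 6.23, SE 0.69, adjusted p = 3.37e-05). *Apcs*, serum amyloid P, was at 90.8 to 129 CPM in Ctrl (median 119) and 350.2, 447 and 1214 CPM in ABpIF/F mice (log2 fold change 2.53, SE 0.26, adjusted p = 1.27e-06). *Hp*, haptoglobin, was at 1193 to 1709 CPM in Ctrl (median 1326) and 3111, 4400 and 9271 CPM in ABpIF/F mice (log2 fold change 1.99, SE 0.29, adjusted p = 4.00e-05). *Lcn2*, *Apcs* and *Hp* did not overlap between the groups, and of the ABpIF/F mice BG90 was the highest for each of them. The 3 mice differed in *Saa1*, serum amyloid A, at 20.0 to 33.4 CPM in Ctrl (median 25.8) and 11.5, 13.8 and 492 CPM in ABpIF/F mice (log2 fold change 2.69, SE 1.49, adjusted p = 0.296), and in *Orm1*, at 546 to 838 CPM in Ctrl (median 621) and 161, 277 and 1870 CPM in ABpIF/F mice (log2 fold change 0.27, SE 0.89, adjusted p = 1), both above every Ctrl mouse in BG90 and below every Ctrl mouse in BG183 and BG38. Of 24 coagulation and fibrinolysis genes 6 rose, 6 without BG38, 0 with the strain label and 1 with the clock score in the fit, 3 without BG175 and 1 without BG90. *Fga*, a fibrinogen chain, was at 3342 to 4740 CPM in Ctrl (median 3983) and 5701, 6703 and 14459 CPM in ABpIF/F mice (log2 fold change 1.17, SE 0.28, adjusted p = 0.00442). *Serpinf2*, the plasmin inhibitor, was at 800.1 to 1028 CPM in Ctrl (median 832) and 2480, 1769 and 2588 CPM in ABpIF/F mice (log2 fold change 1.36, SE 0.16, adjusted p = 2.16e-06). *F2*, prothrombin, was at 1723 to 2371 CPM in Ctrl (median 1790) and 2381, 1773 and 2617 CPM in ABpIF/F mice (log2 fold change 0.26, SE 0.17, adjusted p = 0.375). *Fga* and *Serpinf2* did not overlap between the groups, whereas *F2* did, and of the ABpIF/F mice BG90 was the highest for each of them. Most complement genes were not called: of 25, 1 rose and 3 fell, against 2, 0 and 1 that rose and 1, 1 and 1 that fell in the 3 alternative fits. *Mbl2*, a mannose-binding lectin, was at 427 to 611 CPM in Ctrl (median 479) and 179.9, 50.8 and 36.5 CPM in ABpIF/F mice (log2 fold change -2.46, SE 0.47, adjusted p = 0.00184). *C3* was at 7908 to 13148 CPM in Ctrl (median 11571) and 10010, 11313 and 19916 CPM in ABpIF/F mice (log2 fold change 0.33, SE 0.24, adjusted p = 0.448). *Fga* lost its call without BG3 (1.15), malpa454 (1.13), malpa458 (1.12) or BG90 (0.64) and *Mbl2* lost its call without BG38 (-2.18). No call named here was kept in all 3 alternative fits.

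Interferon-stimulated genes were higher, 14 of 29 having risen (median 1.08), the number that rose being 8 without BG38, 3 with the strain label and 2 with the clock score in the fit. Against ABpIF/+ 27 of the list were higher, in a comparison where 5.49% of all genes were. In ABpIF/+ against Ctrl 16 of the 29 fell and 0 rose (median -1.21). The summed level was 605 to 750 CPM in Ctrl, 281 to 400 CPM in ABpIF/+ and 799, 1691 and 1170 CPM in ABpIF/F mice. The 250 bases before the RefSeq gene start on GRCm38.p6 were searched, and those of 3 of these genes are shown in part because each holds GAAANNGAA, the core of the element that interferon-activated factors bind. Capitals mark only the copy of the motif nearest the gene start. Each of the 3 stretches also holds further copies that overlap it or each other and stand partly or wholly in lower case. Letters are given 5′ to 3′ on the minus strand, that of the genes.
Isg15 (chr4:156200856-156200904): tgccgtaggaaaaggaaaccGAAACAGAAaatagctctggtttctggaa
Oas1g (chr5:120887614-120887645): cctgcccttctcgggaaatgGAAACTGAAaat
Oas1a (chr5:120907526-120907559): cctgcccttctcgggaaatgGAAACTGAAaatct
The stretches of *Oas1g* and *Oas1a*, neighbouring copies whose reads may be split between them, shared their first 32 bases. Of the 29 list genes 22 had a promoter sequence, and 14 of these (63.6%) held the motif on either strand before a start, against 2211 of 27025 genes in all (8.18%). A match is a description and not a site of binding. *Isg15*, a ubiquitin-like protein, was at 7.24 to 16.5 CPM in Ctrl (median 9.59) and 19.4, 45.5 and 42.0 CPM in ABpIF/F mice (log2 fold change 1.73, SE 0.28, adjusted p = 2.70e-04). *Oas1a*, a sensor of double-stranded RNA, was at 3.39 to 4.32 CPM in Ctrl (median 3.91) and 12.5, 43.6 and 28.4 CPM in ABpIF/F mice (log2 fold change 2.87, SE 0.24, adjusted p = 1.96e-08). *Oas1g* was at 1.31 to 2.75 CPM in Ctrl (median 1.71) and 5.03, 30.0 and 13.4 CPM in ABpIF/F mice (log2 fold change 3.08, SE 0.40, adjusted p = 2.68e-05). *Isg15*, *Oas1a* and *Oas1g* did not overlap between the groups, and of the ABpIF/F mice BG38 was the highest for each of them. *Ifi44*, an interferon-induced protein, was at 4.42 to 7.97 CPM in Ctrl (median 5.44) and 26.1, 88.0 and 54.4 CPM in ABpIF/F mice (log2 fold change 3.30, SE 0.27, adjusted p = 2.04e-07). *Ifi44* did not overlap between the groups, and of the ABpIF/F mice BG38 was the highest for it. *Oas1a* and *Ifi44* kept their calls in each of the 3 alternative fits.

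Markers of other cells were measured beside these genes. Of 13 neutrophil genes 11 rose, 6 without BG38, 0 with the strain label and 0 with the clock score in the fit, and their summed level was 2.86 to 5.35 CPM in Ctrl and 5.84, 114 and 43.1 CPM in ABpIF/F mice. *S100a8*, an abundant neutrophil protein, was at 0.149 to 1.03 CPM in Ctrl (median 0.234) and 0.489, 22.9 and 6.61 CPM in ABpIF/F mice (log2 fold change 4.78, SE 0.88, adjusted p = 0.00155). Of 20 macrophage and Kupffer cell genes 7 rose, 5 without BG38, 0 with the strain label and 0 with the clock score in the fit, with sums of 482 to 665 CPM in Ctrl and 458, 1122 and 848 CPM in ABpIF/F mice. *Ccr2*, the receptor of recruited monocytes, was at 0.684 to 1.38 CPM in Ctrl (median 1.08) and 2.12, 21.3 and 9.43 CPM in ABpIF/F mice (log2 fold change 3.35, SE 0.50, adjusted p = 1.22e-04). *Clec4f*, of resident Kupffer cells, was at 106 to 152 CPM in Ctrl (median 129) and 89.5, 163 and 159.9 CPM in ABpIF/F mice (log2 fold change 0.09, SE 0.20, adjusted p = 1). *Ccr2* did not overlap between the groups, whereas *S100a8* and *Clec4f* did, and of the ABpIF/F mice BG38 was the highest for each of them. Platelet genes had 6 of 9 that rose, 2 without BG38, 0 with the strain label and 0 with the clock score in the fit. Sums of the platelet list were 8.79 to 13.2 CPM in Ctrl and 10.7, 33.0 and 27.2 CPM in ABpIF/F mice. The part of such cells in the acute phase, interferon and chemokine values was not tested. In the chemokine list 3 of 22 genes rose and 0 fell (median 1.78), and 1, 0 and 0 rose in the 3 alternative fits. Sums of the chemokine list were 399 to 575 CPM in Ctrl and 495, 454 and 516 CPM in ABpIF/F mice. *Cxcl1*, a chemokine that attracts neutrophils, was at 1.74 to 4.36 CPM in Ctrl (median 2.44) and 29.1, 55.9 and 129 CPM in ABpIF/F mice (log2 fold change 4.77, SE 0.48, adjusted p = 1.34e-05). Of 22 stellate cell and fibroblast genes 5 rose and 1 fell, and 1 without BG38, 0 with the strain label and 0 with the clock score in the fit rose, and 3 without BG175. Of the 22, 17 were higher than in ABpIF/+ livers, in a comparison where 5.49% of all genes were. In ABpIF/+ against Ctrl 13 of the 22 fell and 0 rose (median -1.18). *Tgfb2*, a cytokine of fibrosis, was at 0.353 to 0.995 CPM in Ctrl (median 0.567) and 2.77, 11.3 and 2.86 CPM in ABpIF/F mice (log2 fold change 3.18, SE 0.43, adjusted p = 1.24e-05). *Pdgfrb*, a stellate cell receptor, was at 7.31 to 10.5 CPM in Ctrl (median 9.16) and 10.4, 13.9 and 9.04 CPM in ABpIF/F mice (log2 fold change 0.31, SE 0.22, adjusted p = 0.430). *Cxcl1* and *Tgfb2* did not overlap between the groups, whereas *Pdgfrb* did, and of the ABpIF/F mice BG90 was the highest for *Cxcl1* and BG38 was the highest for *Tgfb2* and *Pdgfrb*. Endothelial genes had 2 of 20 that rose (median 0.00), 0, 0 and 0 in the 3 alternative fits, and edgeR called none of 11 pancreas and 10 red cell genes, of which 0 and 3 had an unadjusted p under 0.05 and DESeq2 called 1. *S100a8* lost its call without BG38 (3.28). The calls named here were not kept in all 3 alternative fits.

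**Figure D4:**
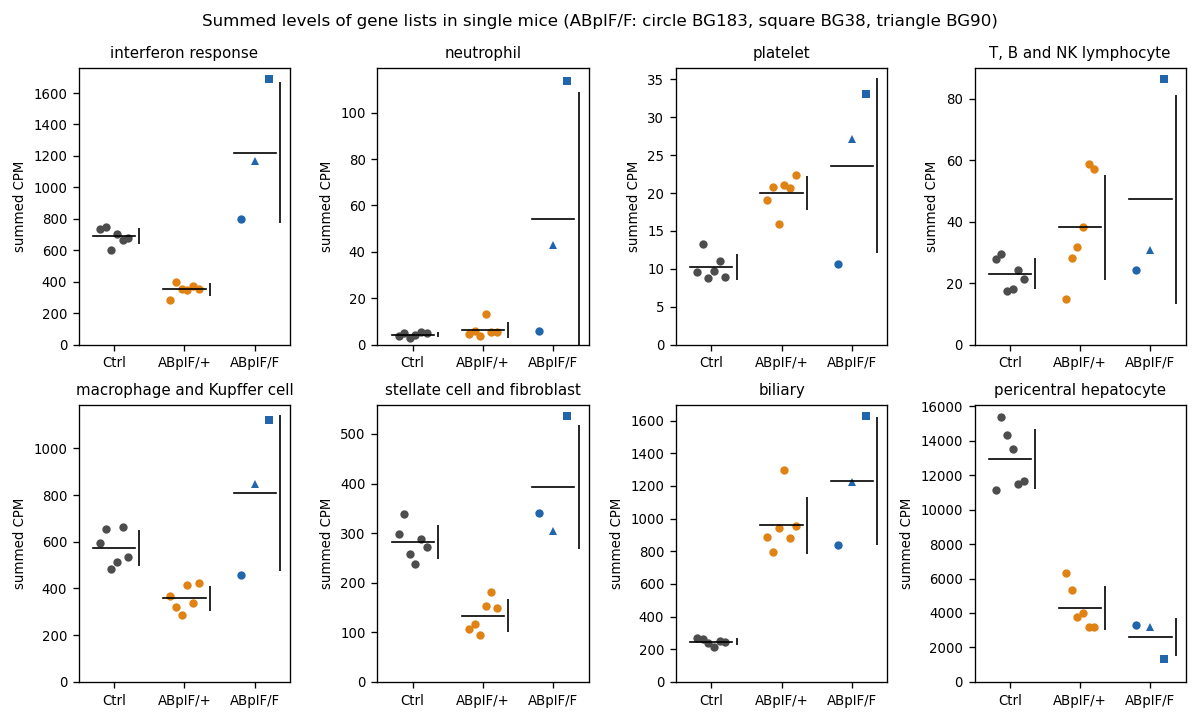
Summed CPM (linear axes) of 8 gene lists in each mouse (points), with the group mean (line) and SD (bar). Circle, square and triangle mark BG183, BG38 and BG90. The neutrophil sum was 5.84, 114 and 43.1 CPM in the ABpIF/F mice, while the pericentral sum was below every Ctrl mouse in all 3.

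Of 24 targets of p53 4 rose, 1 without BG38, 2 with the strain label and 0 with the clock score in the fit did, in livers where the p53 gene was floxed in both groups, and 2 rose without malpa454. *Cdkn1a*, the cell cycle inhibitor p21, was at 0.424 to 2.16 CPM in Ctrl (median 1.10) and 4.89, 12.2 and 10.1 CPM in ABpIF/F mice (log2 fold change 3.06, SE 0.66, adjusted p = 0.00529). *Btg2*, an inhibitor of proliferation, was at 5.50 to 8.40 CPM in Ctrl (median 6.35) and 29.5, 42.3 and 73.4 CPM in ABpIF/F mice (log2 fold change 2.88, SE 0.30, adjusted p = 5.97e-06). *Mdm2*, the p53 ligase, was at 15.8 to 25.4 CPM in Ctrl (median 22.5) and 19.9, 27.9 and 24.9 CPM in ABpIF/F mice (log2 fold change 0.17, SE 0.14, adjusted p = 0.529). *Cdkn1a* and *Btg2* did not overlap between the groups, whereas *Mdm2* did, and of the ABpIF/F mice BG38 was the highest for *Cdkn1a* and *Mdm2* and BG90 was the highest for *Btg2*. None of 36 proliferation genes was called by edgeR (median 0.18), 10 had an unadjusted p under 0.05 and 0 were called by DESeq2. Against ABpIF/+ livers 18 of them were higher and 1 lower, in a comparison where 5.49% of all genes were higher. In ABpIF/+ against Ctrl 16 of the 36 fell and 0 rose (median -1.07). *Mki67*, the marker of cycling cells, was at 3.61 to 7.99 CPM in Ctrl (median 4.71) and 4.21, 10.7 and 6.22 CPM in ABpIF/F mice (log2 fold change 0.47, SE 0.34, adjusted p = 0.456). *Top2a*, topoisomerase of dividing cells, was at 2.21 to 5.38 CPM in Ctrl (median 3.41) and 2.58, 4.85 and 5.11 CPM in ABpIF/F mice (log2 fold change 0.26, SE 0.30, adjusted p = 0.750). *Mki67* and *Top2a* did overlap between the groups, and of the ABpIF/F mice BG38 was the highest for *Mki67* and BG90 was the highest for *Top2a*. *Cdkn1a* lost its call without BG3 (3.12), malpa454 (2.90), malpa458 (2.90), malpa459 (3.13), malpa462 (3.01), BG38 (2.79) or BG90 (2.98). No call named here was kept in all 3 alternative fits.

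Clock genes separated the ABpIF/F mice from 5 of the 6 Ctrl mice. In the clock, BMAL1 and its partners act through the E-box CACGTG and drive *Dbp*, *Tef* and the *Per* genes, and DBP and TEF act through the D-box TTATGTAA. Stretches of 3 promoters, from the 250 bases before a gene start on GRCm38.p6, are shown because they hold these letters. They are given 5′ to 3′ on the gene's strand, minus for *Ciart* and *Per3* and plus for *Tef*. Capitals mark only the copy nearest the start, and the stretch of *Ciart* holds another CACGTG in lower case.
Ciart (chr3:95882247-95882292): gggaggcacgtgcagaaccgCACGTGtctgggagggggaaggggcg
Tef (chr15:81811256-81811301): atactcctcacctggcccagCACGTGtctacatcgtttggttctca
Per3 (chr4:151044796-151044843): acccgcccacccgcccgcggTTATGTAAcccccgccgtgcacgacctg
Of 11 genes of the DBP and PER phase 10 had a promoter sequence, of which 4 (40.0%) held CACGTG in those bases against 6.86% of all genes and 1 (10.0%) held TTATGTAA against 0.977%, on either strand. Of these 11 genes 5 fell (median -1.93), against 2, 1 and 0 in the 3 alternative fits, the clock score being formed in part by those genes. The number that fell was 8 without malpa387, 3 without malpa454 or malpa458, 1 without BG90 and 1 with Ctrl and ABpIF/F mice alone in the fit. *Ciart*, a repressor of the clock, was at 0.335 to 21.8 CPM in Ctrl (median 17.9) and 1.17, 0.249 and 0.679 CPM in ABpIF/F mice (log2 fold change -4.49, SE 0.95, adjusted p = 0.00504). *Tef* was at 54.2 to 257 CPM in Ctrl (median 226) and 73.7, 48.4 and 26.1 CPM in ABpIF/F mice (log2 fold change -2.03, SE 0.41, adjusted p = 0.00239). *Per3* was at 3.95 to 107 CPM in Ctrl (median 70.9) and 9.59, 6.81 and 1.46 CPM in ABpIF/F mice (log2 fold change -3.46, SE 0.89, adjusted p = 0.0160). *Ciart*, *Tef* and *Per3* did overlap between the groups, and of the ABpIF/F mice BG38 was the lowest for *Ciart* and BG90 was the lowest for *Tef* and *Per3*. The lowest Ctrl value of *Ciart*, *Per3*, *Tef* and *Dbp* was that of malpa387, at 0.335, 3.95, 54.2 and 3.69 CPM. *Usp2*, a deubiquitinase with a daily rhythm, was at 3.69 to 101 CPM in Ctrl (median 73.5) and 0.424, 1.25 and 0.965 CPM in ABpIF/F mice (log2 fold change -6.21, SE 0.93, adjusted p = 4.14e-04), its lowest Ctrl value also that of malpa387. Of the BMAL1 phase, *Bmal1* was at 0.404 to 16.4 CPM in Ctrl (median 1.16) and 21.2, 22.1 and 30.6 CPM in ABpIF/F mice (log2 fold change 2.72, SE 0.88, adjusted p = 0.0517). *Npas2* was at 0 to 3.80 CPM in Ctrl (median 0.244) and 6.92, 8.12 and 14.0 CPM in ABpIF/F mice (log2 fold change 3.60, SE 0.89, adjusted p = 0.0118). Neither was called, and malpa387 was the highest Ctrl mouse of both. *Nr1d1*, a repressor of *Bmal1*, was at 69.7 to 114 CPM in Ctrl (median 79.0) and 199, 90.5 and 73.7 CPM in ABpIF/F mice (log2 fold change 0.54, SE 0.39, adjusted p = 0.472). *Usp2*, *Bmal1* and *Npas2* did not overlap between the groups, whereas *Nr1d1* did, and of the ABpIF/F mice BG183 was the lowest for *Usp2*, BG90 was the highest for *Bmal1* and *Npas2* and BG183 was the highest for *Nr1d1*. Against malpa387 as the only Ctrl mouse *Ciart* had a log2 fold change of 1.03, and with the clock score in the fit of 0.08. The hour of collection and the genotype cannot be told apart here. *Tef* lost its call without BG38 (-2.01) or BG90 (-1.72) and *Ciart* lost its call without BG183 (-5.11), BG38 (-4.05) or BG90 (-4.48). *Per3* became called without malpa387 (-3.71) and *Bmal1* became called without malpa387 (4.34). *Npas2* became called without malpa387 (5.55). No call named here was kept in all 3 alternative fits.

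**Figure D5:**
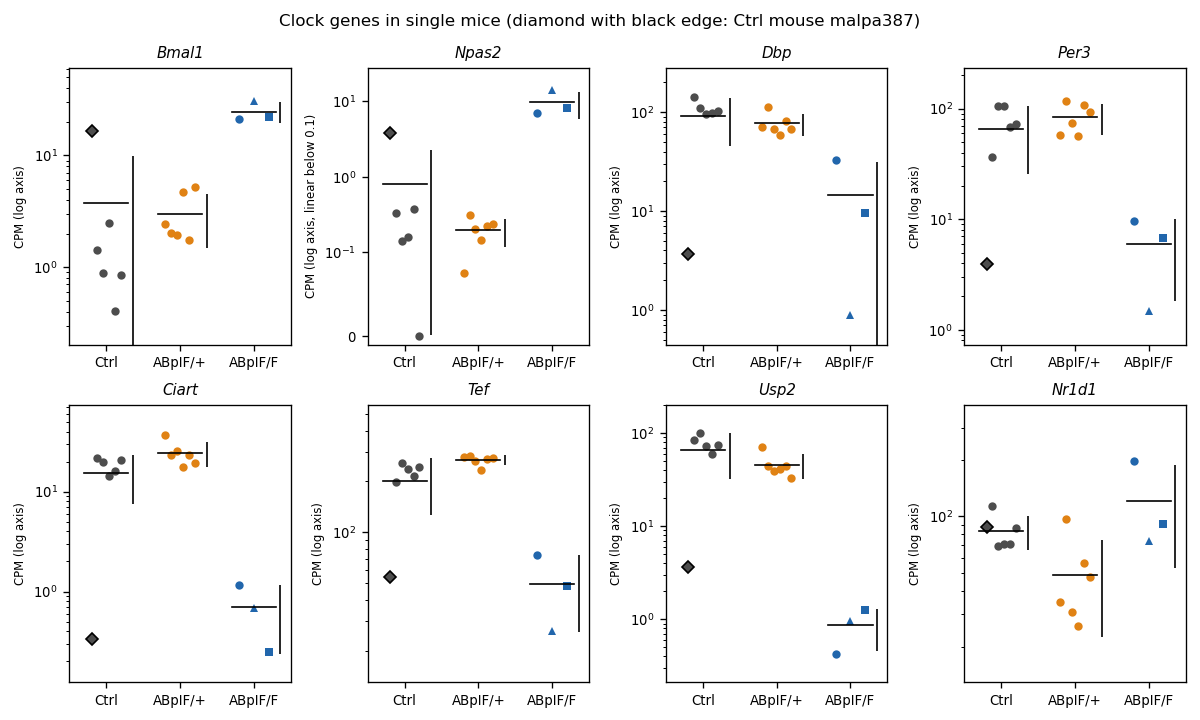
CPM (log axes) of 8 clock genes in each mouse (points), with the group mean (line) and SD (bar). Circle, square and triangle mark BG183, BG38 and BG90, and the diamond marks malpa387, the highest Ctrl mouse for *Bmal1* and *Npas2* and the lowest for *Dbp*, *Per3*, *Ciart*, *Tef* and *Usp2*.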

How the data were processed

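RNA from mouse liver was extracted with Trizol, and per the labels and the study's methods libraries were made with an Illumina stranded mRNA kit and sequenced as read pairs on a NovaSeq. The authors trimmed the reads, aligned them to mm10 with HISAT2, counted them per gene with featureCounts 2.0.8 and deposited raw counts. The gene annotation and the strand setting of the counting are not given in the sources used here. The labels list 23 samples of 15 mice, 8 mice being named by 2 samples, and the table has 1 column per mouse, so that libraries of a mouse could not be told apart. A second table has 5 columns headed by a bare number, which were not used, and its 10 columns with a mouse name were identical to those used. No 2 mice had identical columns.

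All 27179 genes were kept, 1319 of them without a symbol, and 93% of the Entrez identifiers were found in the RefSeq table. Counts were scaled by TMM, and the 15 mice of 3 groups were fitted with edgeR 4.0.16 (R 4.3.3, limma 3.58.1) by robust quasi-likelihood tests with Benjamini-Hochberg adjustment over all genes, called at an adjusted p under 0.01 and a fold of at least 2. The other comparisons, of ABpIF/F with ABpIF/+ and of ABpIF/+ with Ctrl, came from the same fit and use the same thresholds. A floor of 3 counts per library stands for 0 and covers counting error only. On counts simulated for ABpIF/F vs Ctrl over 27179 genes, 200 genes were changed and the dispersion was 0.1. The test recovered 22% of genes raised 2-fold, 98% raised 4-fold, 100% raised 8-fold and 96% lowered 4-fold, and called 1 unchanged gene. No other dispersion was simulated, so these shares do not apply to genes that vary more between mice. They were not split by expression level, and recovery of weakly expressed genes was not tested.

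The members and lists were chosen with earlier results of these data known. The rule for naming took the targeted genes, the 10 genes per direction with the largest called change, a group mean of at least 5 CPM and no overlap, and per list up to 4 called genes of at least 1 CPM besides its key genes. Of the 259 genes so named, those described were picked by role after their values were seen. Alternatives were RLE scaling, DESeq2 1.42.0, the filter of filterByExpr, the newer quasi-likelihood method, no robust estimation, other thresholds, a fit of Ctrl and ABpIF/F alone, a strain term, the clock score and each mouse left out. Fits with mice of the second strain label alone, or with malpa387 as the only Ctrl mouse, were chosen after seeing the data. Promoter sequences came from RefSeq on GRCm38.p6, and the 250 bases before each gene start were searched, a gene with several starts counting once. Proteomic and histological data were not analysed here, and some genes are not reported here.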

Additional observations from a re-analysis of the deposited data

Results flagged for a closer look

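In the Ctrl group of 6 mice, 143 sets of values were checked for a mouse whose gap to its nearest neighbour exceeded Dixon's critical share of the range, and 22 had one. For independent sets of normally distributed values chance gives about 1 in 20. Most sets here were CPM of single genes picked after their values were seen, and clock genes stand beside the score that they form. The 22 can therefore not be measured against that chance. Of the 22, 11 were values of malpa387 and 6 of BG3.

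In malpa387 the clock score was 1.02, with -3.77 in the nearest Ctrl mouse. The same mouse was the highest for *Bmal1* at 16.4 CPM (next 2.47), *Npas2* at 3.80 CPM (next 0.373), *Tff3* at 1.34 CPM (next 0.155) and *Sctr* at 0.447 CPM (next 0.0933). It was the lowest for *Ciart* at 0.335 CPM (next 14.3), *Dbp* at 3.69 CPM (next 95.3), *Tef* at 54.2 CPM (next 198), *Ccnd1* at 105 CPM (next 140.4), *Igfals* at 97.8 CPM (next 161) and *Slc10a1* at 517 CPM (next 774).

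BG3 had the lowest TMM factor of the Ctrl mice, 0.978 against 1.05 in the nearest, and the lowest *Afp*, 2.79 CPM (next 3.99). It was the highest for *F2* at 2371 CPM (next 1828), *Fbp1* at 1390 CPM (next 1125), *Orm1* at 838 CPM (next 634) and *S100a8* at 1.03 CPM (next 0.373).

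In malpa459 *Col1a1* was at 14.4 CPM (next 9.56), *Meltf* at 0.124 CPM (next 0.0372) and *Cacna1b* at 0.0311 CPM, with 0 in the other Ctrl mice. The values of *Meltf* and *Cacna1b* lie near or under the floor of 3 counts per library. *Cxcl1* was highest in malpa458 at 4.36 CPM (next 2.58), and *Dusp5* was lowest in malpa462 at 0.261 CPM (next 0.533).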

How the results depend on the processing

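Of 1236 genes that rose and 647 that fell, the counts stayed within 1.5 times under RLE scaling, DESeq2, filterByExpr, the newer quasi-likelihood fit, dispersions without robust estimation, an adjusted p under 0.05 and a fit of Ctrl and ABpIF/F alone, which gave 1120 to 1743 genes up and 614 to 774 down. With a log2 fold change of at least 2 required, 663 rose and 193 fell, which the stricter threshold brings about. With the strain label as a term 457 rose, 352 of them among the 1236, and 691 fell, 407 of them among the 647. With the clock score as a covariate 271 rose and 283 fell, of which 249 and 248 were shared. With mice of the second strain label alone 392 rose, 314 shared, and 590 fell, 333 shared. With malpa387 as the only Ctrl mouse 206 rose and 209 fell, of which 180 and 167 were shared. In both of these fits the lone Ctrl mouse is assumed to vary like the other groups. The fit with the strain term likewise sets ABpIF/F against BG3 alone, and that with the clock score leans on malpa387. Each mouse left out in turn gave 774 (without BG38) to 1480 (without BG183) genes up and 438 (without BG38) to 796 (without BG183) down. Beyond the threshold and the number of mice, the cause was not tested. *Ciart* changed sign, to a log2 fold change of 0.0756 with the clock score and 1.03 with malpa387 as the only Ctrl mouse. Because *Ciart* is among the genes that form the clock score, the loss of its change in that fit is no separate result. No paired analysis was possible because the columns carry no replicate number shared between groups. The planned fit on the second table was not run, since its named columns were identical and its numbered columns were not used. Counting error limits genes near the floor, and 3 ABpIF/F mice limit all others.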
